A study of Schmidtea mediterranea with 6 samples.

Results

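A set of 55 poly(A) sites of the planarian flatworm Schmidtea mediterranea is described here, with higher signal in differentiated cells than in stem cells. On the log2 scale, most of that difference was already present in the gate between them. The 55 sites were chosen from 5054 on a custom array. A member had to be well above background on both arrays of the Xins gate and on at least 1 array of the X1 gate, to be higher in Xins than in X1 by 1.5 or more on the log2 scale, and to have an X2 level that covered a share of 0.5 to 1 of that difference. The share is (X2 minus X1) divided by (Xins minus X1), both in log2 units. In linear intensity, the part of the difference present in X2 is smaller for every member. The median folds of the members over X1 were 3.13 in X2 and 5.67 in Xins. Each site was read on its brightest probe. Of the 1008 sites measured in Xins and X1, 247 were higher in Xins by at least 1.5, and the 55 made up 22.3% of these. The other sites of the 247 were 173 (70.0%) with a share under 0.5, called gained late below, and 19 (7.69%) with X2 above Xins. These signals chose the members, so their levels and differences across the gates are given as a description, with no test.

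The array carries probes to sites labelled as distal poly(A) sites. The worms were of the sexual strain, no treatment of them is named, and the 3 groups of 2 arrays each are cell populations separated by flow cytometry: X1, labelled stem cells, X2, labelled progenitor cells, and Xins, labelled differentiated cells. Each array held mRNA of 1 sample, labelled with Cy3, and all 6 arrays lay on 1 slide. Nothing in the labels tells if a gate's 2 samples were sorted from different worms, and the spread between them may be technical. The files give no gene names, so the gates could not be checked against marker genes, and members go by transcript model and contig. Signals are given as log2 of the intensity minus a reference level of the same array, the 75th percentile of the 1914 probes that passed the background criterion on all 6 arrays. An array had 2515 to 3108 of its 10902 probes above background by that criterion. In such sorted bulk samples, fewer cells of a type and less RNA per cell cannot be told apart.

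Planarians replace their tissues throughout life from adult stem cells, the neoblasts, which are the dividing cells of the animal and are lost after irradiation. The X1 gate is defined by the DNA content of dividing cells. X2 holds a mixture of stem cells and their early postmitotic descendants, and Xins is the fraction that resists irradiation. Poly(A) sites are where a transcript is cleaved and given its tail, usually a short distance after the signal hexamer AATAAA or its variant ATTAAA, which is bound by the cleavage and polyadenylation machinery.

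The sequences that the signals were read on are shown for the 16 members named below, as the 30 nt at the 3′ end of each probe, where a poly(A) signal would lie. Capitals mark AATAAA or, failing that, ATTAAA, where it starts within 10 to 35 nt of the 3′ end, searched on the probe's own strand.
mk4.000843.00.01: tacttgtgaattattgagacttttgattag
OX_Smed_1.0.02116: ttgcaatttaaggacaaaaagaggacatcg
OX_Smed_1.0.13427: tttaaAATAAAttggtttttcattttttag
dd_smedV4_840_0_1: cgggccagtcggggaaactggacttatggg
dd_smedV4_3820_0_1: acttttacttAATAAAtgttttttcattac
OX_Smed_1.0.04252: attgttttagcgagaacatttaattacttc
dd_smedV4_2172_0_1: tgcttgaggATTAAAttgaaaatacataat
OX_Smed_1.0.01851: tatttattcaatatataatatatatattgg
OX_Smed_1.0.14385: aaatctgaatcactatcattatttgatttg
mk4.016603.00.01: aaaactaattgttaaaatcttatatatgtt
mk4.045288.00.01: tgaatctatgaatgataATTAAAaaatatt
OX_Smed_1.0.12830: aattttgactttttagagttttaaattgaa
OX_Smed_1.0.01676: AATAAAtgcattgtttattatttttgaggt
dd_smedV4_7052_0_1: tcataaatacttcattttgattgaaattaa
OX_Smed_1.0.20311: tattatgaacattaattcgaatagcatttg
dd_smedV4_12888_0_1: ctctgagaatatcactttggaatcatttat
Within these 30 nt, 3 of the 16 stretches held AATAAA, 2 held ATTAAA alone, and 11 held neither. The stretch of dd_smedV4_840_0_1 stands out by its G and C, and its whole probe of 45 nt had a GC content of 55.6%, the highest among the members.

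In the members, the step from X1 to X2 was larger than the step from X2 to Xins, as the rule's lower bound on the share requires. The bound likewise sets the reverse order in the sites gained late. The median X2 minus X1 difference was 1.65 (3.13-fold), with a range of 0.83 to 4.31, and the median Xins minus X2 difference was 0.73, from 0.15 to 2.72. The whole difference between Xins and X1 had a median of 2.5 (5.67-fold) and, among the 37 members well above background on both X1 arrays, reached 4.56 (23.6-fold) at mk4.000843.00.01. A higher value of 5.63 was computed at dd_smedV4_652_0_9, but 1 of its X1 arrays was not well above background. After normexp background correction and quantile normalization its value was 1.62. That processing also lowered differences of members well above background on both X1 arrays, to 2.42 at mk4.000843.00.01, 1.59 at mk4.016603.00.01 and 1.27 at OX_Smed_1.0.04252. At mk4.045288.00.01 it gave 3.91, against 3.97 before. In the 173 sites gained late, the medians were 0.59 for X2 minus X1, 2.38 for Xins minus X2 and 2.66 for the whole. Over all 1008 measured sites, the medians of X2 minus X1 and Xins minus X1 were 0.03 and 0.06.

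**Figure D1:**
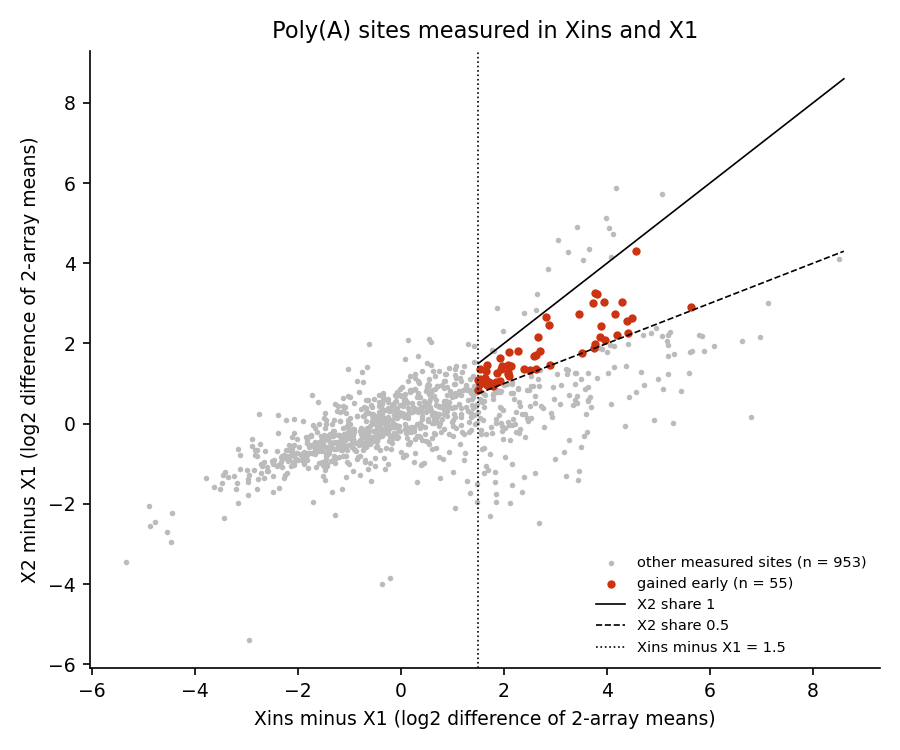
The 1008 sites measured in Xins and X1, by the log2 difference of Xins from X1 (horizontal) and of X2 from X1 (vertical), each between means of 2 arrays. The 55 members (red) lie right of the dotted line at 1.5 and between the dashed line of share 0.5 and the solid line of share 1, bounds that the selection rule set, and most of them sit nearer to the dashed line.

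The shares were spread over the range that the rule allows, with more members at its lower end. The median share was 0.659, with quartiles of 0.563 and 0.780. A share of 0.5 to 0.6 was found in 21 members, 0.6 to 0.7 in 12, 0.7 to 0.8 in 11, 0.8 to 0.9 in 9 and above 0.9 in 2. Differences between Xins and X1 of at least 2, 3 and 4 were found in 36, 19 and 8 members. The lower bounds cut through closely spaced sites. At the bound of 1.5, dd_smedV4_12888_0_1 lay just inside with 1.5006 and dd_smedV4_5767_0_1 (Contig1292) just outside with 1.4983. At the share of 0.5, OX_Smed_1.0.20311 was inside with 0.5047 and dd_smedV4_5753_0_1 (Contig2135) outside with 0.4991. At the share of 1, dd_smedV4_840_0_1 was inside with 0.9459 and dd_smedV4_75102_0_1 (Contig10084) outside with 1.0014.

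At several members the X2 level came close to that of Xins. The site of mk4.000843.00.01 (Contig843, plus strand, 31111 to 31193) was at -3.85 and -4.07 on the X1 arrays, at 0.43 and 0.27 on the X2 arrays and at 0.96 and 0.24 on the Xins arrays. Both X2 arrays lay far above both X1 arrays, and the X2 and Xins arrays overlapped. Its X2 minus X1 difference of 4.31 (19.8-fold) was the largest among the members, and its share was 0.94. The site of OX_Smed_1.0.13427 (Contig2559, minus strand, 51520 to 51528), with AATAAA 25 nt before the probe's end, gave -3.58 and -3.36 in X1, -0.32 and -0.09 in X2, and 0.53 and 0.08 in Xins. Here the gates did not overlap, and 3.27 of the difference of 3.78 was present in X2. The site of OX_Smed_1.0.02116 (Contig1547, plus strand, 52253 to 52372) was at -4.80 and -3.29 in X1, -1.39 and -0.24 in X2, and -0.54 and 0.05 in Xins, with an X2 minus X1 difference of 3.23 (9.38-fold). Its arrays numbered 2 were higher than those numbered 1 in every gate, and X2 array 2 lay above Xins array 1. The site of dd_smedV4_3820_0_1 (Contig1766, minus strand, 859 to 932) was at -4.97 and -5.52 in X1, with 1 of these arrays well above background, at -2.43 and -2.60 in X2, and at -1.42 and -2.17 in Xins. Its share was 0.79.

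Of all members, the site with the highest share had the largest SD between its Xins arrays. At dd_smedV4_840_0_1 (Contig13024, plus strand, 8309), the X1 arrays gave -5.02 and -5.05, the X2 arrays -2.76 and -1.98, and the Xins arrays -3.30 and -1.14, so that the Xins mean of -2.22 had an SD of 1.53 (n = 2). The X2 arrays lay between the Xins arrays. Read on the arrays numbered 1 alone the share was 1.31, and on those numbered 2 it was 0.78.

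In other members X2 lay clearly between the outer gates. The site of OX_Smed_1.0.04252 (Contig7465, plus strand, 14389 to 14502) was at -6.07 and -4.93 in X1, -2.83 and -2.10 in X2, and -1.40 and -1.03 in Xins. The site of dd_smedV4_2172_0_1 (Contig10112, plus strand, 8109 to 8155) was at -4.74 and -4.57 in X1, -2.11 and -1.72 in X2, and -0.16 and -0.83 in Xins. In both, the 3 gates were separate on all arrays, with shares of 0.71 and 0.66 and differences of Xins from X1 of 4.29 (19.5-fold) and 4.16 (17.9-fold). The site of OX_Smed_1.0.14385 (Contig5735, minus strand, 24268 to 24356) gave -4.09 and -4.54, then -1.86 and -1.49, then -0.71 and 1.05 in the same order of gates. Its Xins mean of 0.17 had an SD of 1.24. A smaller and more even difference was seen at OX_Smed_1.0.01851 (Contig2107, minus strand, 47797 to 47824), at 0.02 and 0.29 in X1, 1.09 and 1.29 in X2, and 1.84 and 1.88 in Xins, 3.26-fold between the outer gates.

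Another 6 of the named members lay near the lower bound on the share, the last of them OX_Smed_1.0.20311. At mk4.016603.00.01 (Contig16603, minus strand, 3135 to 3173) the signal was -4.66 and -5.08 in X1, -2.56 and -2.67 in X2, and -0.24 and -0.66 in Xins, so that X2 was 4.76-fold and Xins 21.4-fold above X1. The site of mk4.045288.00.01 (Contig45288, minus strand, 486 to 547) was at 4.65 and 3.48 in X1, 6.44 and 5.88 in X2, and 7.61 and 8.45 in Xins. It was saturated on both Xins arrays, as no other member was on any array, so Xins was at least 15.6-fold above X1 and its share of 0.53 is an upper bound that may hide one below the rule's 0.5. The gates of both sites did not overlap, and the share of mk4.016603.00.01 was 0.51. The site of OX_Smed_1.0.12830 (Contig574, plus strand, 55659 to 55678) was at -2.93 and -1.80 in X1, -1.05 and 0.27 in X2, and 1.17 and 1.64 in Xins. The site of OX_Smed_1.0.01676 (Contig14, plus strand, 229922 to 229936) was at -0.28 and -0.97, then 0.84 and 0.57, then 2.22 and 1.53. The site of dd_smedV4_7052_0_1 (Contig1009, minus strand, 101089 to 101137) was at -6.02 and -5.53, then -4.03 and -3.73, then -2.08 and -2.0. In these 3 sites too the gates were separate, although dd_smedV4_7052_0_1 was well above background on 1 of the 2 X1 arrays.

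Of the named members, 2 lay next to a bound and had unlike X1 arrays. OX_Smed_1.0.20311 (Contig15305, minus strand, 3312 to 3358) was at -6.56 and -4.00 in X1, -3.65 and -3.36 in X2, and -2.61 and -0.91 in Xins. The X1 mean of -5.28 had an SD of 1.81, and the share was 0.74 on the arrays numbered 1 and 0.21 on those numbered 2. At dd_smedV4_12888_0_1 (Contig467, minus strand, 135401) the arrays gave -4.12 and -5.69 in X1, -3.75 and -3.86 in X2, and -2.95 and -3.86 in Xins, with shares of 0.31 and 1.0. Each was well above background on 1 X1 array.

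**Figure D2:**
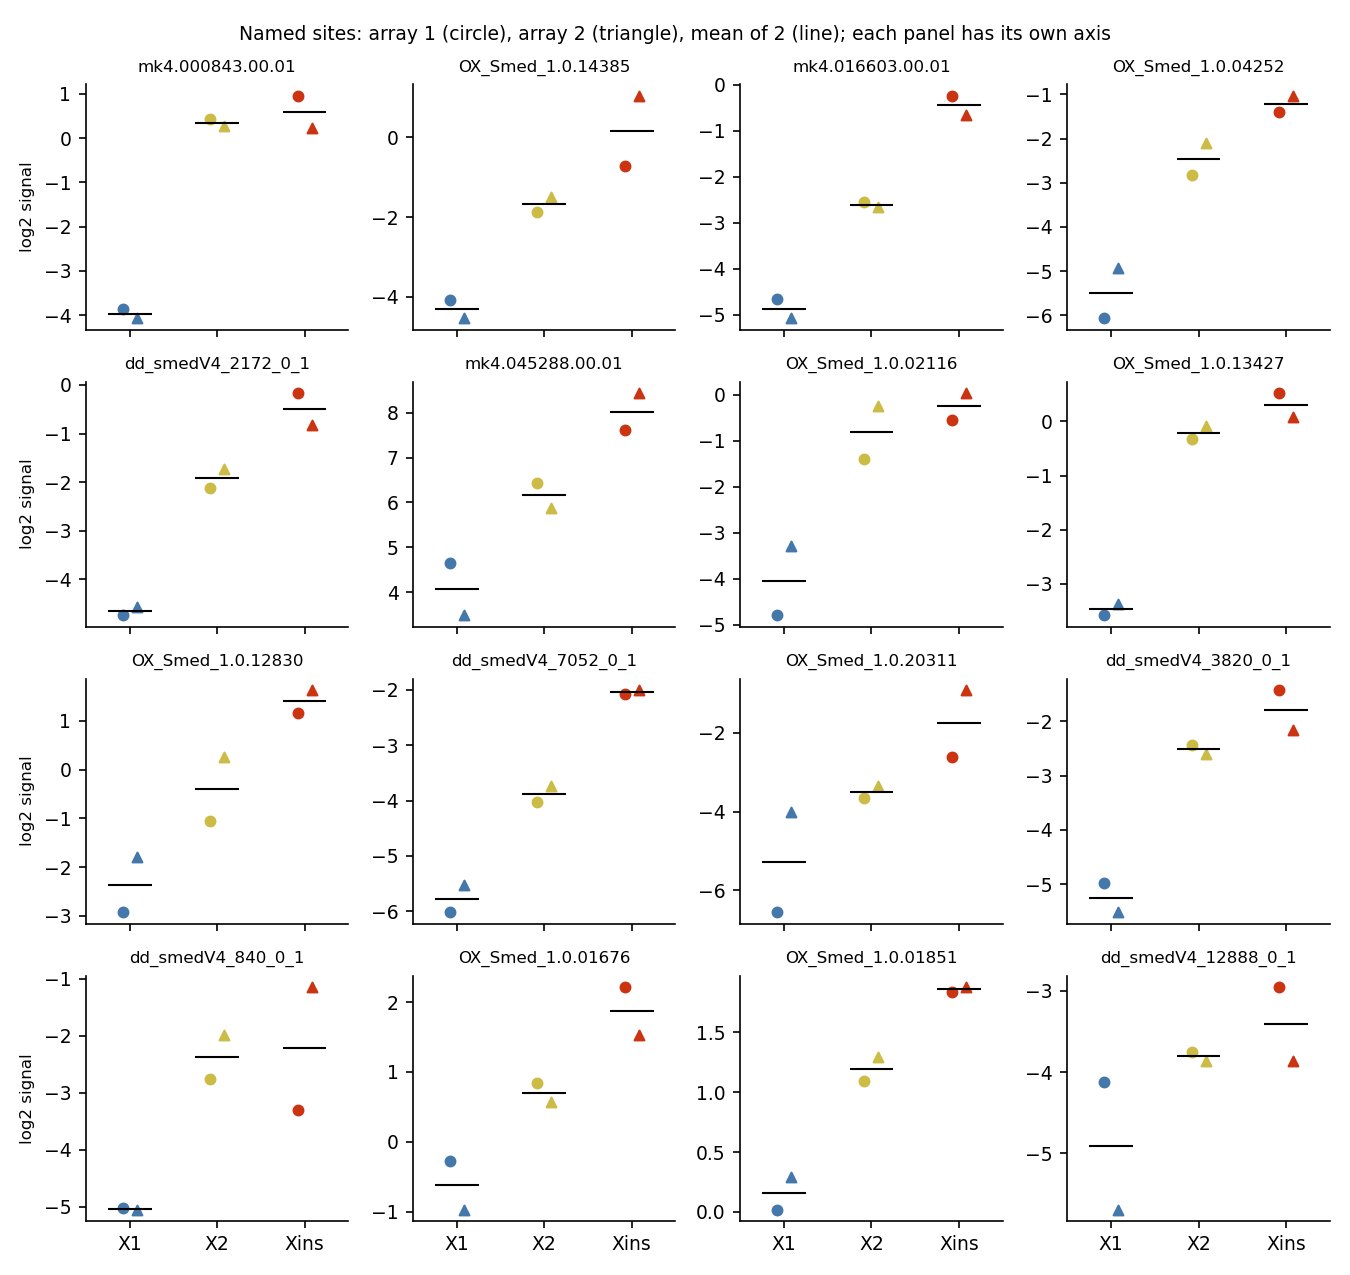
Log2 signal relative to the array's 75th percentile (vertical, a separate axis per panel) for the 16 named members in X1, X2 and Xins, with array 1 as a circle, array 2 as a triangle and the mean of both as a line. The X2 arrays lie above both X1 arrays in every panel, and the X2 and Xins symbols overlap for mk4.000843.00.01, OX_Smed_1.0.02116, dd_smedV4_840_0_1 and dd_smedV4_12888_0_1.

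Over all 55 members, the order of the gates was mostly kept on single arrays. Both Xins arrays were above both X1 arrays in all 55, as in 36.9% of the 1349 tested sites, those that passed the background criterion on both arrays in 1 gate or more. Both X2 arrays were above both X1 arrays in 52, against 29.1% of tested sites, and the exceptions were dd_smedV4_30130_0_1, dd_smedV4_13920_0_1 and dd_smedV4_28134_0_1, which were named after their values were seen. Both Xins arrays were above both X2 arrays in 36, against 28.1%. All 3 gates were separate in 35 members, against 13.1% of tested sites. Since the rule used these same differences, nothing is read from these counts against the background. The X2 arrays differed little in their median distance from the X1 mean, at 1.59 for array 1 and 1.81 for array 2, and the Xins arrays stood at 2.33 and 2.17. Across the 1008 measured sites, the same 4 medians lay between 0.01 and 0.09.

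**Figure D3:**
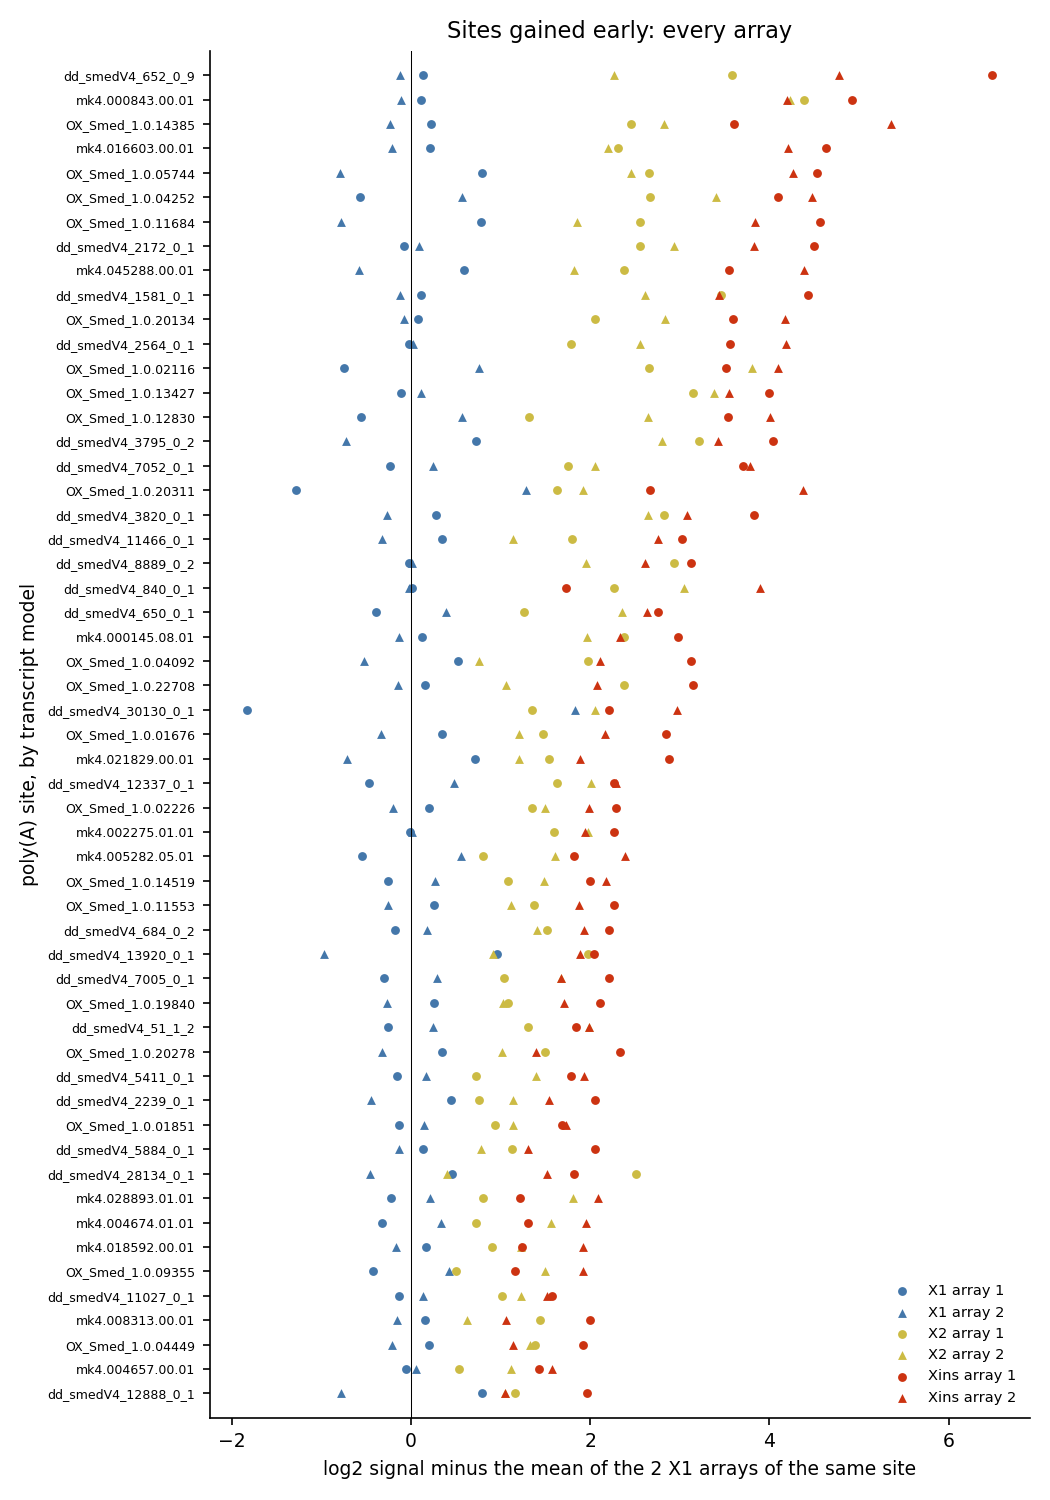
All 55 members (rows, ordered by their difference between Xins and X1), with the log2 signal of each of the 6 arrays minus the mean of both X1 arrays of the same site (horizontal). The X2 symbols (yellow) lie between those of X1 (blue) and Xins (red) in most rows, and the X1 arrays spread most at dd_smedV4_30130_0_1 and OX_Smed_1.0.20311.

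Detection was uneven in X1. Both X1 arrays were well above background in 37 members, which were the members well above background on all 6 arrays. In the other 18 a single X1 array was, namely array 1 in 16 of them and array 2 in 2. Array 1 of X1 had 3022 probes well above background in all and array 2 had 2515. For these 18 sites the X1 mean includes 1 array near background, and its part in the differences was not tested. In X2, both arrays were well above background in 54 members and 1 of 2 in dd_smedV4_28134_0_1. The median SD between arrays of a gate was 0.37 in X1, 0.33 in X2 and 0.41 in Xins, and the largest SD of a member in any gate was 2.59, that of dd_smedV4_30130_0_1 in X1 (-8.27 and -4.61).

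On the arrays of 1 number alone, the order of the gates was kept in more members than a share of 0.5 to 1. The rule used these arrays, so both counts are a description. How many of all measured sites kept this order or such a share on these arrays is not given. The order of X2 and Xins also depended on the scaling, as 22 members had X2 above Xins with spike-in scaling. On the arrays numbered 1 alone, X1, X2 and Xins followed each other upwards in 53 members, and on the arrays numbered 2 in 50. The share lay between 0.5 and 1 in 43 members on the former and 45 on the latter, and in 34 on both. Its median was 0.590 and 0.700.

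**Figure D4:**
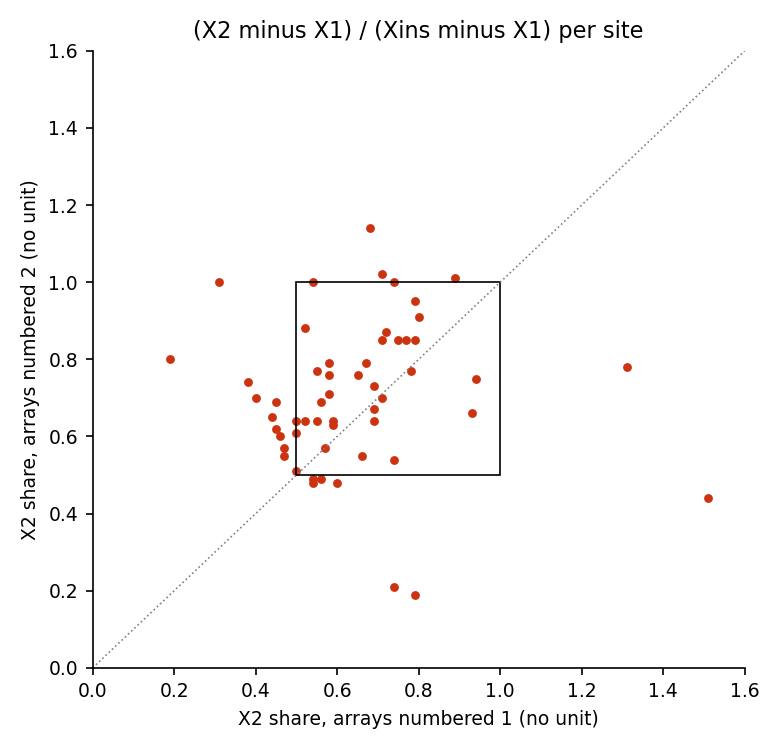
The share of the Xins minus X1 difference present in X2 for each of the 55 members, from the 3 arrays numbered 1 (horizontal) and the 3 numbered 2 (vertical), with no unit. The square bounds 0.5 to 1 on both axes and holds 34 members, and for each point outside it the share left that range on at least 1 of the array sets.

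Choosing sites on 3 arrays and reading them on the other 3 gave values that the choice had not used. All arrays shared a slide and a set of reference probes, and a gate's arrays may be technical repeats. This reading is therefore no independent test. How many of all measured sites had X2 or Xins above X1 on these arrays is not given, so the counts are a description. Across all measured sites, the median distance from the X1 mean was 0.06 for X2 array 1 and 0.09 for X2 array 2. These medians subtract the mean of both X1 arrays. The differences below subtract the X1 array of the same number, so they are not a like measure. With the rule applied to the arrays numbered 1 alone, 64 sites met it, 36 of them among the 55. On the arrays numbered 2, Xins was above X1 in 63 of these 64 and X2 above X1 in 60, with a median X2 minus X1 difference of 1.46 against 1.5 on the arrays that chose them. The rule was met again by 30 of the 64. With the arrays numbered 2 as the choice, 33 sites met the rule, 24 of them among the 55. On the arrays numbered 1, Xins and X2 were above X1 in all 33, the median X2 minus X1 difference was 1.89 against 1.69, and 17 met the rule again. The median share on the arrays not used was 0.623 and 0.568, against 0.631 and 0.688 on those used.

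Some sites were read by more than 1 probe. At 26 sites the same sequence was entered through several transcript models, as 85 probes in all. Within a site the Xins minus X1 differences of such probes had a median range of 0.21 and at most 0.92. The bounds on the difference and the share were met by 77 of the 85, with no background criterion applied. This count includes the member's own probe at each of the 26 sites, which met them by selection. At mk4.004657.00.01 (Contig4657, plus strand, 10285 to 10305) only the member's own probe did among 6, whose Xins minus X1 differences spanned 0.20. With the member's own probe counted, 2 of 4 did at dd_smedV4_840_0_1, which has the highest share, and 3 of 4 at mk4.008313.00.01. At 20 sites a second, different sequence was present, and 11 of these were measured in Xins and X1. Their differences from the member's probe had a median of 0.13 and reached 0.39 for Xins minus X1, and 8 of the 11 met the rule. These sequences overlap the member's probe by 12 to 58 nt, so they are not independent. At OX_Smed_1.0.19840 (Contig1506, minus strand, 52795 to 52939), where the overlap was 12 nt, the pair gave 1.92 and 1.69 for Xins minus X1 and 1.06 and 0.92 for X2 minus X1.

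The other 9 second sequences were not measured in X1, in Xins or in both, and 4 of them were well above background on no array. At OX_Smed_1.0.02116 the second probe shares no stretch with the first at its ends and was well above background on 0 of 6 arrays, and at dd_smedV4_3820_0_1, with an overlap of 2 nt, the same held. At OX_Smed_1.0.20311, with an overlap of 29 nt, it held as well. For these 3 members the values above rest on 1 of 2 sequences of the site. At dd_smedV4_7052_0_1 the second sequence was well above background on 4 of 6 arrays, and gave 3.94 for Xins minus X1 and 2.15 for X2 minus X1, against 3.74 and 1.89. Others differed from the member's probe, each well above background on 1 array. At OX_Smed_1.0.11684, with an overlap of 43 nt, the second sequence gave 1.0 and -0.48 against 4.20 and 2.21, and at dd_smedV4_51_1_2, with 40 nt, it gave -0.65 and -1.67 against 1.92 and 1.65. The one at OX_Smed_1.0.20278, gave 2.24 and 0.87 against 1.86 and 1.25.

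In 3 members the probe sequence also stands for a site on another contig, which was not a member. The sequence of mk4.005282.05.01 (Contig5282, minus strand, 32458 to 32467), with a share of 0.57, had 0.48 at Contig20788. That of mk4.004674.01.01 (Contig4674, plus strand, 35806 to 35816), with 0.70, had 0.34 at Contig2743, and that of mk4.004657.00.01, with a difference of 1.5 between Xins and X1, had 1.36 at Contig12811. The same sequence thus fell on both sides of a bound, and signal cannot be assigned to either contig. No stretch of 25 nt was shared between probes of different members.

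The members were scattered over the contigs, with 55 members on 55 contigs. In all, 23 members had another site of the array on their contig, 44 such sites together, the nearest 1194 nt away. Of these 44, 12 were measured in Xins and X1, on 9 contigs and at least 12628 nt from the member. Among the 12, 3 were gained late, 2 were lower in Xins than in X1 by 1.5 or more, and 7 differed by less than 1.5. The member OX_Smed_1.0.20311 lay 12628 nt from a site on the opposite strand, that of mk4.015305.00.01, which was higher in Xins by 4.14 and in X2 by 1.93. The member OX_Smed_1.0.01676 lay 129080 nt from a site of the same strand, that of mk4.000014.01.01, which had a Xins minus X1 difference of -3.16 and an X2 minus X1 difference of -0.63.

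The sequence at the sites was not used by the rule. The poly(A) signal AATAAA was found in that window of 10 to 35 nt in 14 members, or 25.5% (95% exact binomial interval 14.7 to 39.0%), against 30.6% of sites gained late (23.9 to 38.1%), 32.9% of the other measured sites (30 to 36%) and 42.8% of all 5054 sites. The intervals of the members and of the measured sites overlap, and they cover counting error only. The variant ATTAAA without AATAAA was found in 6 members (10.9%, 4.11 to 22.2%), 5.2% of sites gained late and 4.62% of the other measured sites. Neither hexamer was found in 35 members (63.6%), near the 64.2% and 62.4% of these sets. In the members with AATAAA its first base lay 16 to 34 nt from the 3′ end, with a median of 24 nt, the same as in the sites gained late, and 25 nt in the other measured sites.

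The sites of the members were wide, as are measured sites in general. Their median span on the contig was 33 nt, against 26 nt for sites gained late, 18 nt for the other measured sites and 3 nt for all sites on the array. A span over 15 nt was found in 37 members (67.3%, interval 53.3 to 79.3%), 65.3% of sites gained late and 54.4% of the other measured sites (51.1 to 57.6%). At wide sites the probe need not end where the transcript does. Among the 18 members with a span of at most 15 nt, 6 (33.3%) had AATAAA, against 37.0% of the other measured sites of that width. A run of 5 or more T was present in 25 member probes (45.5%, interval 32.0 to 59.4%) and in 33.6% of the other measured sites, and TGTA in 13 (23.6%) and 31.7%. The median GC content of the probes was 25%, from 16.7 to 55.6%, against 26.4% in the other measured sites. None of these shares was tested against the rest.

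The fit of limma over the 2910 tested probes, with Benjamini-Hochberg adjustment within each contrast, called 52 of the 55 members higher in Xins than in X1 at an adjusted p under 0.05. Of the 1349 tested sites, 24.7% were so called. Higher in X2 than in X1 were 16 members, with 4.74% of tested sites called, and higher in Xins than in X2 were 10 members, with 14.9% called. The selection rule used all of these contrasts, so nothing is read from the counts. Without the adjustment, 54, 42 and 14 members passed. The shares of tested sites passing without the adjustment, or called with an array left out as below, are not given. Nothing is read from those counts either. The median standard error of a member's log2 difference was 0.46 in each contrast. Of the 173 sites gained late, 150, 9 and 122 were called in the same 3 contrasts. The 16 became 2 without array 1 of X2, 3 without its array 2, and 5 without either array of X1, which are the 4 arrays of that contrast. For Xins over X2, 6 of 55 were called when an X1 array was dropped. Dropping an Xins array gave 3 (its array 1) or 2 (its array 2), and dropping X2 array 1 gave 2. With X2 array 2 dropped limma called 0, and 11 passed unadjusted.

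Which sites met the rule depended on how the arrays were processed. With the percentile taken over all probes, 37 of the 55 met it again, and 38 did in the values that the authors' deposited table holds. With arrays scaled to the spike-in controls 32 did, among 92 sites in all. After normexp background correction and quantile normalization 6 did, since the median Xins minus X1 difference of the members was then 0.81 and that of X2 minus X1 was 0.35. In 11 members that of Xins minus X1 was still 1.5 or more. This correction added an offset of 50 to every intensity, dim or bright, and the part of the offset in the change was not tested. Spike-in scaling moved the X2 minus X1 difference of tested sites by a median of 0.61, that of the members to a median of 2.26, and left 22 members with X2 above Xins and 0 with a share under 0.5. In the authors' table the Xins minus X1 difference of tested sites was moved by 0.50, and 16 members had a share under 0.5. The X2 minus X1 difference of tested sites moved by 0.12 there and by -0.14 with the percentile over all probes. The rule required X2 above X1 and these settings rescale the same 6 arrays, so the direction is given as a description. X2 was above X1 in all 55 members under 3 of these 4 settings, and in 54 in the authors' table, where dd_smedV4_2239_0_1 was the exception.

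**Figure D5:**
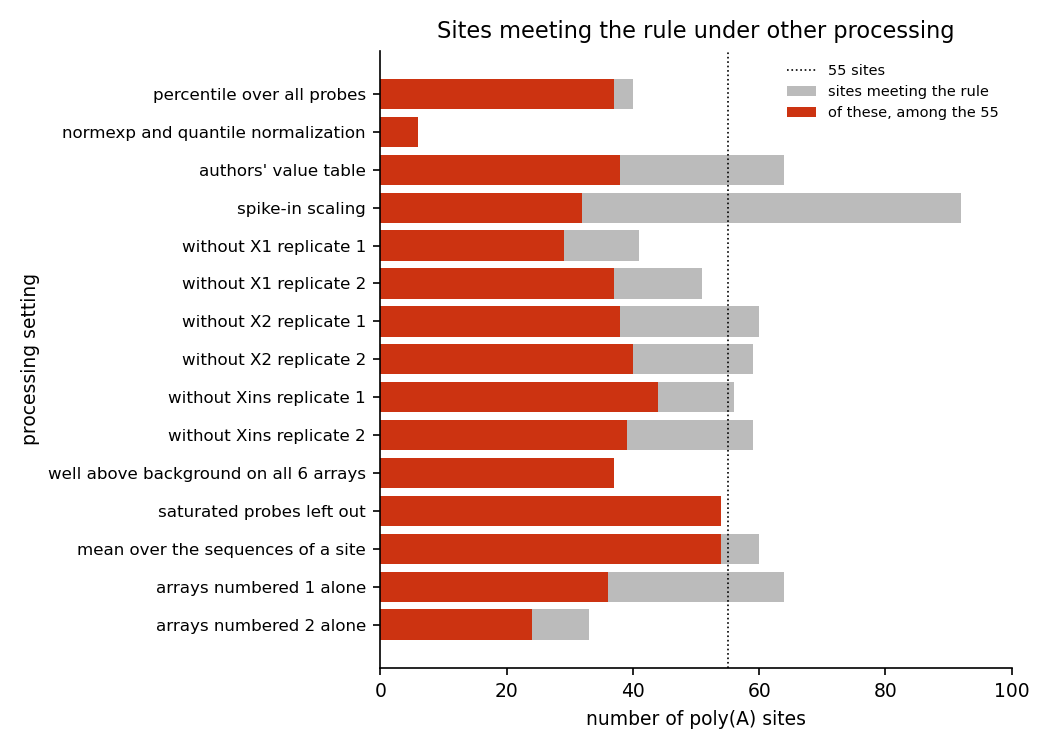
Number of sites meeting the rule under each other setting (full bar) and how many of them are among the 55 (red), with a dotted line at 55. The red part ranges from 6 after normexp and quantile normalization to 54 where saturated probes were left out or the sequences of a site averaged.

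Leaving out any array in turn kept 29 to 44 of the 55, fewest without array 1 of X1, and 12 met the rule in each of the 6 cases. They were picked out after their values were seen. Besides OX_Smed_1.0.04252, OX_Smed_1.0.13427 and dd_smedV4_2172_0_1, described above, these are 9 members with differences between Xins and X1 of 1.94 to 3.88 and shares of 0.60 to 0.85. At OX_Smed_1.0.20134 (Contig3258, minus strand, 9565 to 9737) the arrays gave -3.81 and -3.97 in X1, -1.84 and -1.05 in X2, and -0.30 and 0.28 in Xins. At dd_smedV4_684_0_2 (Contig1230, plus strand, 18691 to 18725) they gave -1.81 and -1.45, then -0.11 and -0.22, then 0.58 and 0.30. At OX_Smed_1.0.14519 (Contig8299, minus strand, 5976 to 6019) they gave -2.79 and -2.26, then -1.45 and -1.05, then -0.53 and -0.35. In each of these 3 sites the gates were separate. At OX_Smed_1.0.11553 (Contig1483, minus strand, 5211 to 5218) they gave -2.10 and -2.62, then -0.99 and -1.24, then -0.09 and -0.48. At mk4.000145.08.01 (Contig145, plus strand, 245128 to 245210) they gave -3.02 and -3.27, then -0.76 and -1.18, then -0.16 and -0.81. There Xins array 2 lay just below X2 array 1, while the gates of OX_Smed_1.0.11553 were separate. The other 4 were at OX_Smed_1.0.02226, mk4.002275.01.01, dd_smedV4_12337_0_1 and dd_smedV4_7005_0_1. OX_Smed_1.0.20134 and dd_smedV4_2172_0_1 also met the rule under all 4 scalings and in every other setting run.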

How the data were processed

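The 6 arrays have 1 colour, with 2 per gate, with groups and replicate numbers from the labels. The authors' scanner files, as deposited, give linear intensity per spot from Feature Extraction 11.5.1.1 per the file headers. The authors' deposited value table was read as natural log from its slopes of 0.694 to 0.719 per log2 unit of scanner signal, the highest at X2 array 1, and was divided to log2. How it was normalized and centred is unknown. In the submitters' processing notes, limma is the tool named. The column medians of that table lie between 0.981 and 1.313.

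Control spots and 11 outlier spots were left out, and spots of a probe averaged as log2. A probe counts as well above background on an array where all of its spots do. Each array's 75th percentile over the 1914 probes passing this on all 6 arrays was subtracted. limma 3.58.1 in R 4.3.3 fitted the 2910 probes that passed it on both arrays in 1 gate or more, with the 3 gates as groups and no block. The fit was tested on simulated data with noise drawn independently for each array. That setting leaves out the joint deviation of same-numbered arrays given below. Coordinates are the files' own, on a build not given in the sources used. Named members were the 6 largest Xins minus X1 and X2 minus X1 differences and the 4 brightest in Xins, among members above background on all 6 arrays with X2 and Xins above X1, plus those next to a bound and up to 4 with a second sequence overlapping by under 30 nt. Members, lists and rules were chosen with earlier results of these data known. Marker genes could not be matched, since every description cell holds a placeholder.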

Additional observations from a re-analysis of the deposited data

How the results depend on the processing

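The 55 sites meeting the rule became 6 after normexp and quantile normalization, 92 with spike-in scaling and 33 on the arrays numbered 2 alone; leaving out an array gave 41 to 60. Members called higher in Xins than in X1 (52) came to 25 with spike-in scaling and 30 with no filter on dim probes, and to 37 to 53 without an array. Members called higher in X2 than in X1 (16) came to 5 after normexp and quantile normalization, 7 with spike-in scaling, 26 with the slide row as a block, 10 where all 6 arrays had to be well above background, 9 with no filter, and 2 to 16 without an array. Members called higher in Xins than in X2 (10) came to 6 with 1 probe per site, 4 where all 6 arrays had to be well above background, 1 with no filter, and 0 to 6 without an array. With spike-in scaling limma called 0 of these, and 0 passed at an unadjusted p under 0.05. Where all 6 arrays had to be well above background, 37 members were tested. With the replicate number as a block, 55, 48 and 28 members were called in the 3 contrasts. The shares of all tested sites called under these settings are not given, so nothing about the members is read from these counts. Same-numbered arrays deviated together, with correlations of 0.604, 0.487 and 0.440 across probes, but 2 numbers per gate do not establish a pairing. The median share of 0.659 was 0.580 after normexp and quantile normalization, 0.551 in the authors' table and 0.955 with spike-in scaling. Without an array, medians lay between 0.623 and 0.699. The share of members with AATAAA stayed within its interval when the whole probe was searched (29.1%) or only narrow sites were kept (33.3%). Of 320 recomputed differences of the named members, 0 changed sign and 43 moved by more than the spread between arrays. Some of them leave out an array of a gate outside the difference and so repeat the main value. The members were chosen for positive differences, so nothing is read from the 0. At sites with a wide spread, large shifts were not counted as moved. At OX_Smed_1.0.20311, X2 minus X1 was 1.77 and became 0.22 after normexp and quantile normalization. The cause of these changes was not tested. Where 1 array is left out, the lone array of that gate is assumed to vary like the others. The number of arrays limits the precision.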
